A study of Mus musculus with 12 samples.

Results

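The genes described here are 36 genes of capillary endothelium, among them Gpihbp1, out of 55335 gene identifiers counted in RNA of mouse heart muscle cells. They were chosen by name, and the Ensembl identifiers of the count files were matched to symbols with a GRCm38 annotation. The 36 genes are listed in the count file of every library, and 36 of 36 passed the filter on low counts that left 16932 genes for testing. The series is about metabolic stress, made by diet and genotype in mice, as a model of heart failure in which the ejection fraction is preserved. By the labels, ApoE KO HFD mice (3 libraries) carried the knockout allele of B6.129P2-Apoe tm1Unc/J in the germ line and ate a Western diet rich in fat and with 0.21% cholesterol. ApoE KO CD mice (3 libraries) are labelled as carrying the same allele and ate chow. Wt HFD mice (2 libraries used) are labelled as C57BL/6J on the Western diet, and Wt CD mice (3 libraries) as C57BL/6J on chow. In all 4 groups the mice were male, 7 to 8 weeks old at the start and 7 weeks on their diet. The labels name the cells as cardiomyocytes and give no method of isolation. Nor do they say that each replicate was its own animal, so the p-values here cover only the spread from library to library, which may be technical.

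The 11 libraries held 22130323 to 46424614 counts, of which 51.5% to 71.3% fell on the mitochondrial genome, which left 9340449 to 16412505 counts on nuclear genes. Wt HFD replicate 3 was left out. It held 1347110 counts, and 76.0% of its counts on 2596 overlapping gene pairs were on the opposite-strand partner, against 0.594% to 0.866% in the other 11. Apoe, the targeted gene, went against the labels of the chow groups. It was at 1.94, 3.02 and 3.16 TMM-scaled CPM (a read count relative to its library's depth, with TMM factors between libraries) in ApoE KO HFD libraries and at 25.3, 23.9 and 6.93 CPM in ApoE KO CD libraries. In libraries labelled Wt it was at 18.9 and 8.44 CPM on the high-fat diet (Wt HFD) and at 2.91, 2.12 and 3.61 CPM on chow (Wt CD). The chow groups are therefore given as the libraries labelled ApoE KO CD and Wt CD, and every direction that rests on them is a direction between labels.

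Capillaries run beside every heart muscle cell, and their endothelium forms the barrier through which fatty acids, the main fuel of the heart, pass from blood to muscle. Lipoprotein lipase is made by the muscle cells, is picked up by GPIHBP1 on the outer face of the capillary, is carried across the endothelial cell and is held on the luminal side, where it splits triglycerides of passing lipoproteins. Junction proteins seal the layer, receptors for VEGF, angiopoietins and sphingosine-1-phosphate keep it alive and tight, and factors of the ETS, SOX and KLF families set its gene programme. Most of the 36 genes are known chiefly from endothelium, not from heart muscle cells, but not all are confined to it. In bulk RNA fewer endothelial cells and less RNA per endothelial cell cannot be told apart. As the cells are labelled cardiomyocytes, the endothelium carried along in each preparation may also differ, and this cannot be told apart from either.

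Promoter sequence is shown because the 36 genes varied together between libraries and because ETS and KLF factors are themselves among them. Of the 36 genes, 17 had an entry in RefSeq's promoter table for GRCm38.p6. The 250 bases before the RefSeq start are printed for Tie1 (chr4:118489850-118490099, minus strand), Cldn5 (chr16:18776597-18776846, plus strand), Klf2 (chr8:72318812-72319061, plus strand) and Klf4 (chr4:55532476-55532725, minus strand), the genes with an entry among those described below library by library. Capitals mark the ETS core GGAAG and its reverse complement CTTCC.
Tie1: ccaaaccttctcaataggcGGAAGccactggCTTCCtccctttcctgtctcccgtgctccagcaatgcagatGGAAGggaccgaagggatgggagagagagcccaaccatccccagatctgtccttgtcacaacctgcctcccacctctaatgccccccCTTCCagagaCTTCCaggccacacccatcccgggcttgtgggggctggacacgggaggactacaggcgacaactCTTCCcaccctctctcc
Cldn5: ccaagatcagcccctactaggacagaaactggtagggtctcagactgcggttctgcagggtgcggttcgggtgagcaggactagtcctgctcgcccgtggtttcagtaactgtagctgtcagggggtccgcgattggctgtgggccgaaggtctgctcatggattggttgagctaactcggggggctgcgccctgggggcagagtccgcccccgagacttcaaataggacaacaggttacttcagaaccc
Klf2: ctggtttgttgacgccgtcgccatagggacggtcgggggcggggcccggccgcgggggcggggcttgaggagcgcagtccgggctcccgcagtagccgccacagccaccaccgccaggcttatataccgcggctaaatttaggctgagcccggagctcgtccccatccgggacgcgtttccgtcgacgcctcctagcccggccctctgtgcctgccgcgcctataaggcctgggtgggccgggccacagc
Klf4: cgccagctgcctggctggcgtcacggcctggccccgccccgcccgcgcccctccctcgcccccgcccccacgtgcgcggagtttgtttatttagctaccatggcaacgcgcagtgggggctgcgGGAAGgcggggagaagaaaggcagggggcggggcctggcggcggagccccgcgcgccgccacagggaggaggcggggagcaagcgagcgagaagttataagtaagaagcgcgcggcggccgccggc
Tie1 held 6 such matches, Klf4 held 1, and Cldn5 and Klf2 held 0. Some genes have several starts in that table, and the 17 genes had 23 windows of 250 bases. Searched on both strands, GGAAG stood in 16 of the 23 windows (69.6%), against 64.1% of 32851 RefSeq windows of the same length. The KLF box CACCC stood in 14 of 23 (60.9%), against 52.0% of all windows. The SOX motif ATTGT stood in 4 of 23 (17.4%), against 27.7%. None of the 3 motifs contains another, and a match is a description of these letters only.

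Per kilobase of exon, the 36 genes were low beside the muscle's own transcripts. Klf2 had the highest mean level over the 11 libraries, 5.62 CPM per kb, followed by Fabp4 at 4.98, Cdh5 at 4.48 and Aqp1 at 3.95 CPM per kb. Sox17 was the lowest at 0.142 CPM per kb, and the median of the 36 genes was 1.23 CPM per kb. The ranges over libraries of Klf2 (3.36 to 8.65 CPM per kb) and Fabp4 (2.58 to 8.94 CPM per kb) overlapped, so the order of these neighbours is not larger than their spread. The 12 cardiomyocyte markers ran from 125 CPM per kb for Ryr2, the calcium release channel, to 4433 CPM per kb for Myh6, the main ventricular myosin of the mouse. Cardiomyocyte RNA was therefore abundant, and endothelial RNA was a minor part. No whole heart tissue was there to compare, so these levels cannot show whether the cells were isolated, as labelled.

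The summed level of the 36 genes was 178, 195 and 233 CPM in ApoE KO HFD libraries and 196, 163 and 144 CPM in libraries labelled ApoE KO CD. In libraries labelled Wt the sum was 240 and 323 CPM in Wt HFD libraries and 296, 140 and 325 CPM in libraries labelled Wt CD. Both Wt HFD libraries stood above every ApoE KO library, and of the Wt CD libraries replicates 1 and 3 did too, while Wt CD replicate 2 was the lowest of the 11. The margin of Wt HFD replicate 1 was narrow, at 240 CPM against 233 CPM in ApoE KO HFD replicate 3. Over the 18 junction and receptor genes alone the order was reversed, at 127 CPM against 138 CPM, so there the high-fat groups overlapped. Gene by gene, Wt CD replicate 3 was the highest library for 17 of the 36 genes and Wt HFD replicate 2 for 9. Wt CD replicate 2 was the lowest for 13 genes and ApoE KO CD replicate 3 for 10. Set against the mean of the other 2 libraries of its group, Wt CD replicate 2 had a median ratio of 0.471 over the 36 genes, with 34 of 36 below 1, beside 0.994 over all genes tested. The Wt CD group therefore holds a library with low endothelial counts, and results of each comparison with it are also given without that library. It was picked by the values of these same genes. Leaving it out raises the Wt CD mean of most of them by construction, so the fits without it are no separate support.

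**Figure D1:**
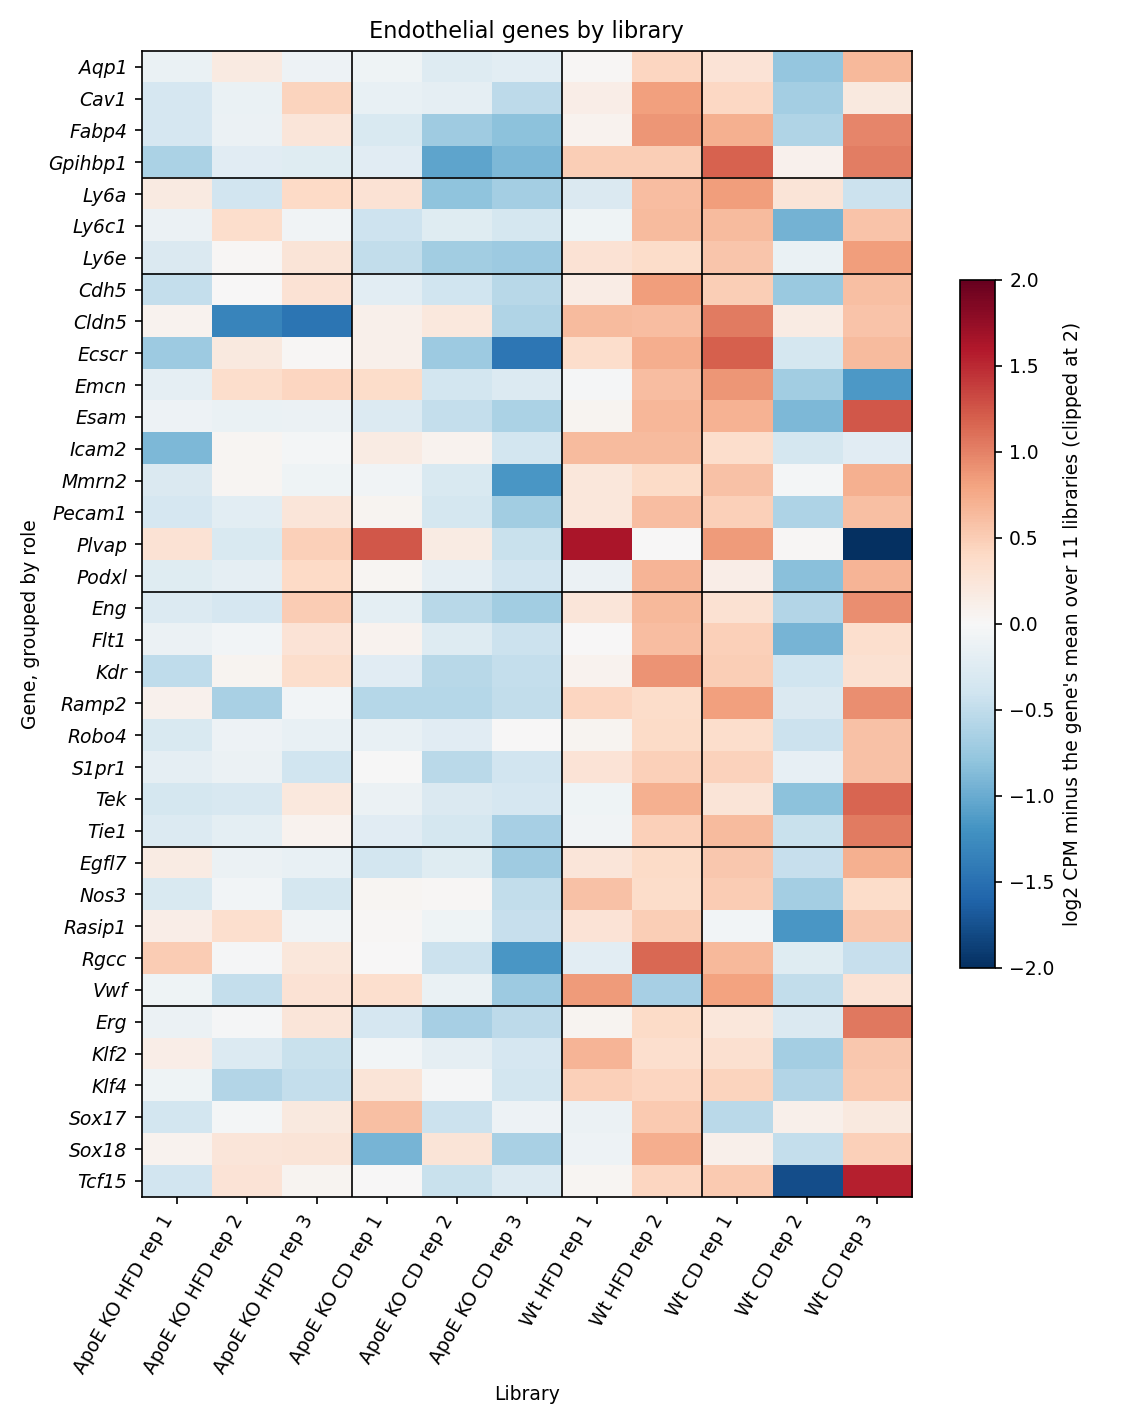
Log2 CPM of each of the 36 endothelial genes (rows, grouped by role) in each of the 11 libraries (columns), minus the gene's mean over the libraries; red is above and blue below that mean, with values clipped at 2. Wt CD replicates 1 and 3 and Wt HFD replicate 2 are red for most genes, and ApoE KO CD replicate 3 and Wt CD replicate 2 are blue, with median deviations of −0.51 and −0.49.

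On the high-fat diet 36 of the 36 endothelial genes were lower in ApoE KO HFD than in Wt HFD libraries, where 48.1% of all genes tested were below 0. The 36 genes varied together between libraries, so here and in the comparisons below such counts are not 36 separate results. Their median log2 fold change was −0.43, beside 0.01 over all genes. No gene of the 36 passed an adjusted p under 0.05 in edgeR's quasi-likelihood test, in which 0.0472% of all genes were called. At an unadjusted p under 0.05, 7 of 36 were lower and 0 higher, where 1.44% of all genes were lower and 1.4% higher. DESeq2 called 0 of the 36. The groups did not overlap, with ApoE KO HFD below, for 14 of the 36 genes, beside 10.3% of all genes. With 2 libraries in the Wt HFD group, leaving out Wt HFD replicate 1 gave a median of −0.61 and leaving out Wt HFD replicate 2 gave −0.19. Markers of other non-muscle cells lay lower in the same comparison, with 11 of 11 tested macrophage markers below 0 (median −0.51) and 9 of 10 fibroblast markers (median −0.37). Of the pericyte and smooth muscle markers 7 of 12 were below 0 (median −0.25), and of the cardiomyocyte markers 4 of 12 (median 0.02). The largest shift was in the atrial cardiomyocyte markers, with 6 of 6 below 0 (median −1.91). Their sum differed widely between the 2 Wt HFD libraries, at 12.8 and 197 CPM. Of the mesothelial markers 3 of 4 were below 0 (median −0.73), of the tested blood cell markers 2 of 5 (median 0.21) and of the tested neural and Schwann markers 1 of 3 (median 0.12). None of these markers was called, and their part in the result was not tested.

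Between the chow labels, 34 of the 36 genes were lower in libraries labelled ApoE KO CD than in those labelled Wt CD, where 51.3% of all genes were below 0. The median log2 fold change was −0.60, beside −0.01 over all genes. Gpihbp1 and Ly6e fell, the only 2 of the 36 called in any of the 6 comparisons (edgeR's quasi-likelihood test, adjusted p under 0.05, 0.508% of all genes called). At an unadjusted p under 0.05, 13 of 36 were lower and 0 higher, where 7.91% of all genes were lower and 7.96% higher. The groups did not overlap, with ApoE KO CD below, for 5 genes (Ly6e, Gpihbp1, Erg, Ramp2 and Mmrn2), beside 7.67% of all genes. Without Wt CD replicate 2, 20 of the 36 genes were called and 1801 genes in all, against 86 genes in all with it. Without Wt CD replicate 1, 0 of the 36 were called. The median was −0.82 without Wt CD replicate 2 and −0.40 without Wt CD replicate 3.

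**Figure D2:**
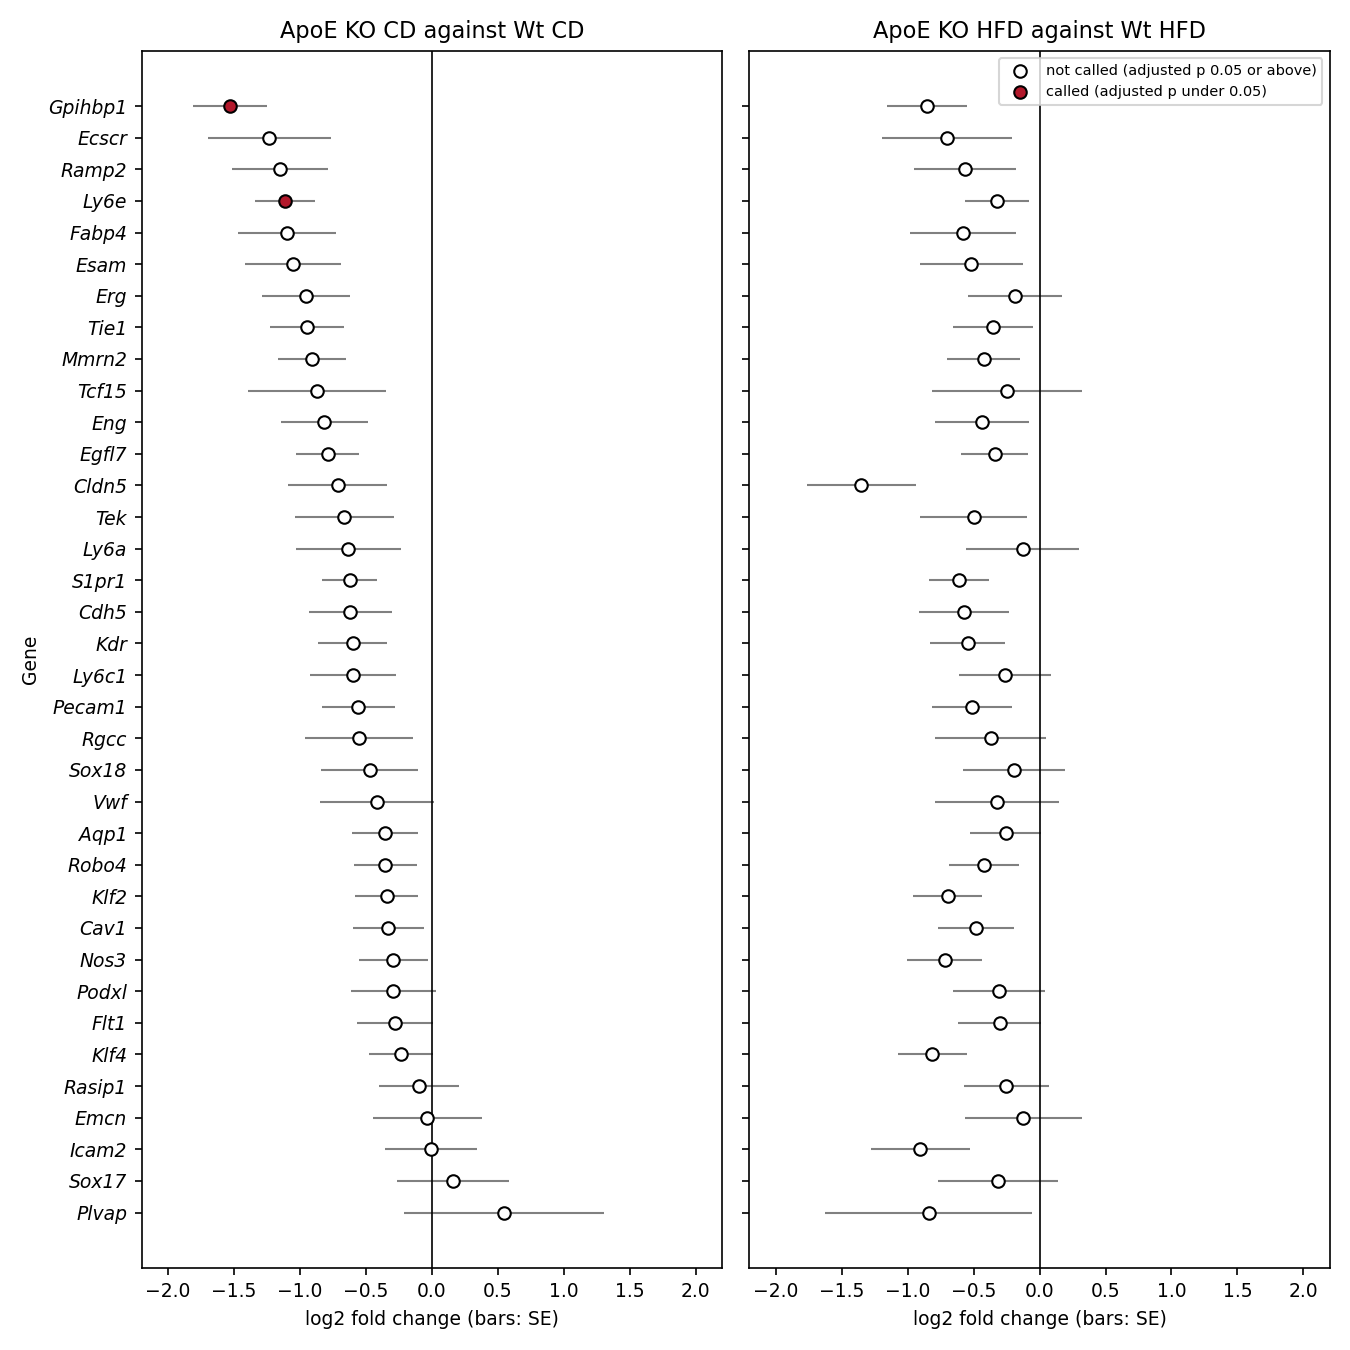
Fitted log2 fold change (points) with its standard error (bars) for each of the 36 genes, for ApoE KO CD against Wt CD (left) and ApoE KO HFD against Wt HFD (right), in the order of the left panel; filled points passed an adjusted p under 0.05. In the left panel 34 of 36 points and in the right panel 36 of 36 points lie below 0, and Gpihbp1 and Ly6e on the left are the called genes.

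ApoE KO HFD against Wt CD, by the labels the combined model set against the plain control, had 31 of 36 genes below 0, beside 50.7% of all genes. Apoe was low in both groups, at 1.94 to 3.16 CPM in ApoE KO HFD and 2.12 to 3.61 CPM in Wt CD libraries. Whether they differ in genotype is therefore uncertain. The median log2 fold change was −0.34, beside −0.01 over all genes. No gene of the 36 was called by edgeR's quasi-likelihood test, which called 0.154% of all genes. At an unadjusted p under 0.05, 8 of 36 were lower and 0 higher, where 6.58% of all genes were lower and 7.65% higher. DESeq2 called 1 of the 36, Gpihbp1. The groups did not overlap for Cldn5 and Gpihbp1, 2 of 36 genes, beside 7.22% of all genes. Without Wt CD replicate 2 the count called was 11 of 36, and 1304 genes in all against 26 with it. Without Wt CD replicate 1 the count called was 0 of 36. The median was −0.62 without Wt CD replicate 2 and −0.14 without Wt CD replicate 3. The comparisons with Wt CD share its 3 libraries, and those with ApoE KO HFD share that group's, so their directions are not separate evidence.

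Between the diets within a genotype label, 0 of the 36 genes passed the threshold. Apoe differed between the diets within each label. It was at 1.94 to 3.16 CPM in ApoE KO HFD and 6.93 to 25.3 CPM in ApoE KO CD libraries. In Wt HFD libraries it was at 8.44 to 18.9 CPM and in Wt CD libraries at 2.12 to 3.61 CPM. Diet and a difference in genotype therefore cannot be told apart in these comparisons or in their interaction. In ApoE KO HFD against ApoE KO CD libraries, 7 of 36 were below 0, beside 48.8% of all genes, with a median log2 fold change of 0.30. Of all genes 0.0709% were called there by edgeR's quasi-likelihood test, and 1 of the 36 passed an unadjusted p under 0.05, beside 1.53% of all genes. Egfl7, Esam, Ly6c1, Ly6e and Erg were higher in each ApoE KO HFD library than in each ApoE KO CD library, 5 of 36 beside 5.04% of all genes. In Wt HFD against Wt CD libraries, 14 of 36 were below 0, beside 51.3% of all genes, with a median of 0.07. There 0.207% of all genes were called, and 0 of the 36 passed an unadjusted p under 0.05, beside 12.9% of all genes. Icam2 alone had Wt HFD above Wt CD without overlap, 1 of 36 beside 12.8% of all genes. Without Wt CD replicate 2 the median of the 36 genes turned to −0.17 and 0 of them were called, while 1019 genes in all were called, against 35 with it. The interaction of diet with genotype is the difference between the diets within the ApoE KO label minus that within the Wt label. It called 0 of 36, with 0.219% of all genes called, and 1 of the 36 passed an unadjusted p under 0.05, beside 8.2% of all genes. Of the 36 genes 13 were below 0 in it, beside 48.5% of all genes, with a median of 0.09. Without Wt CD replicate 2 the interaction called 0 of the 36, while 285 genes in all were called, against 37 with that library. DESeq2 called 0 of the 36 in each of these 3 comparisons.

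Gpihbp1, the lipase carrier, stands on chromosome 15 at 75596628 to 75599481 on the plus strand and had 34 to 205 counts per library. It had 1.82, 2.43 and 2.40 CPM in ApoE KO HFD libraries and 2.42, 1.35 and 1.52 CPM in libraries labelled ApoE KO CD. Wt values of Gpihbp1 were 4.0 and 3.99 CPM in Wt HFD libraries and 6.48, 3.02 and 5.83 CPM in libraries labelled Wt CD. The 6 libraries labelled ApoE KO were all below the 5 labelled Wt, the lowest of which was Wt CD replicate 2. This separation rests on the chow labels, and with these exchanged the genotypes would overlap. Gpihbp1 averaged 1.76 ± 0.574 CPM in libraries labelled ApoE KO CD and 5.11 ± 1.84 CPM in those labelled Wt CD (SD, n = 3 each), a log2 fold change of −1.53 (fitted SE 0.28, adjusted p = 0.0150 in edgeR's quasi-likelihood test). In ApoE KO HFD libraries it averaged 2.22 ± 0.345 CPM (SD, n = 3), at a log2 fold change of −1.21 (fitted SE 0.28, adjusted p = 0.102) against Wt CD and of −0.85 (SE 0.30, adjusted p = 1.00) against Wt HFD, which averaged 3.99 ± 0.00978 CPM (SD, n = 2). ApoE KO HFD against ApoE KO CD gave 0.31 (SE 0.29) and Wt HFD against Wt CD −0.36 (SE 0.30), and the interaction was 0.67 (SE 0.41, adjusted p = 0.682). The chow call was lost without Wt CD replicate 1 (−1.32, adjusted p = 0.0625), without Wt CD replicate 3 (−1.43, 0.0691), without ApoE KO CD replicate 2 (−1.38, 0.114) and without ApoE KO CD replicate 3 (−1.42, 0.140), and it held without the others, Wt CD replicate 2 included (−1.79, 0.000499). It was also lost when only the 2 chow groups were fitted (−1.56, 0.0765) and when the opposite-strand library was kept in (−1.54, 0.679).

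Of the other genes of lipid and water transport, Fabp4, the fatty acid binding protein of heart capillaries, had 16.3, 18.8 and 24.2 CPM in ApoE KO HFD libraries and 16.6, 12.5 and 11.6 CPM in libraries labelled ApoE KO CD. Wt values of Fabp4 were 21.5 and 37.7 CPM in Wt HFD libraries and 33.4, 13.4 and 40.1 CPM in libraries labelled Wt CD. Wt CD replicate 2 lay among the ApoE KO CD libraries, and the chow log2 fold change of −1.10 (SE 0.37, adjusted p = 0.202 in edgeR's quasi-likelihood test) did not pass. Aqp1, a water channel, ran from 5.89 to 15.8 CPM over the 11 libraries, and Cav1, the coat protein of caveolae, from 5.10 to 14.4 CPM. The lowest library for both was Wt CD replicate 2, and their chow log2 fold changes were −0.36 and −0.33. In this group of 4 genes 1 of 4 fell between the chow labels, with 4 of 4 below 0.

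**Figure D3:**
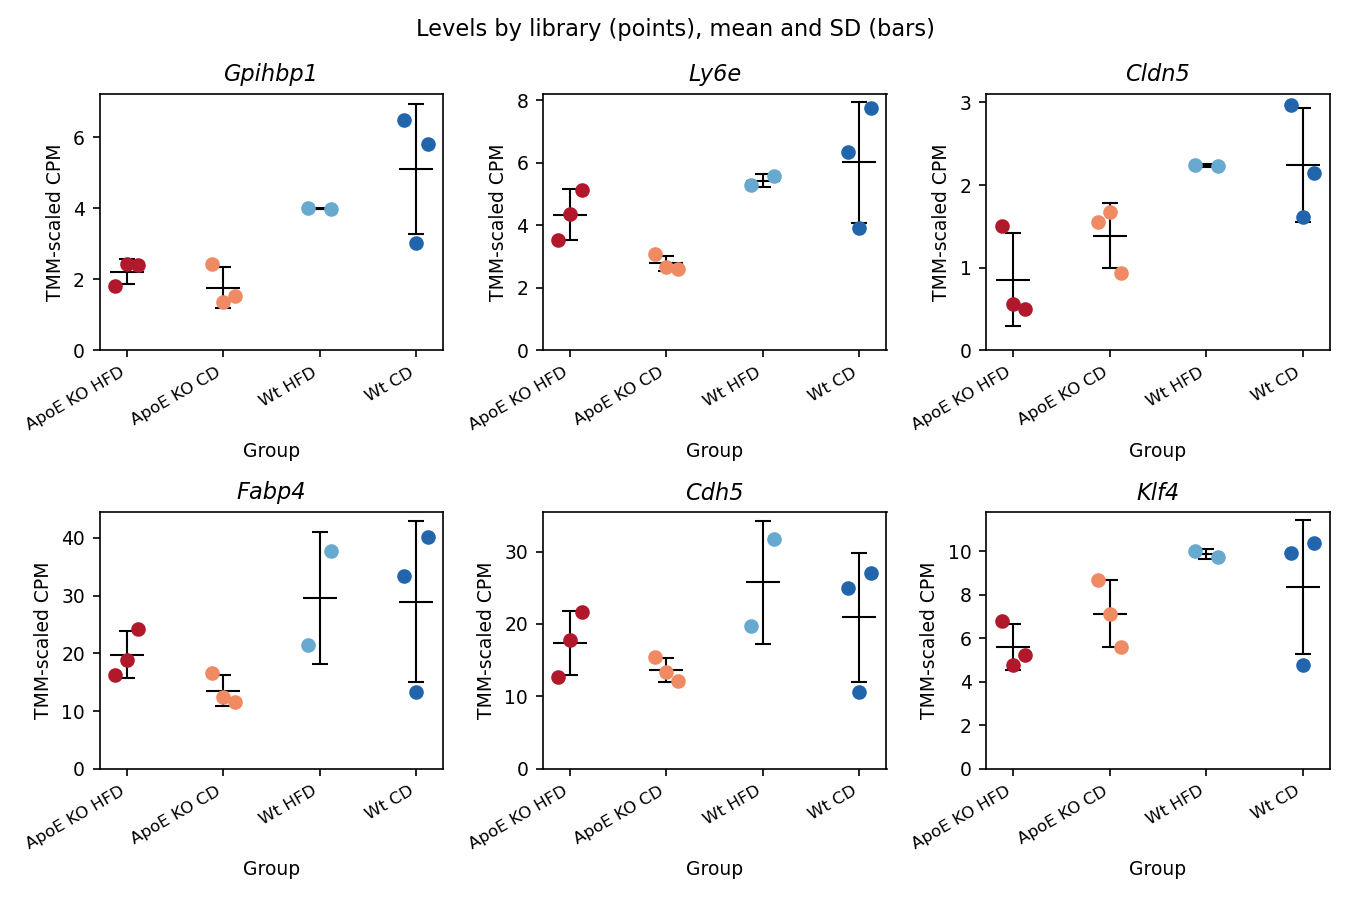
TMM-scaled CPM of Gpihbp1, Ly6e, Cldn5, Fabp4, Cdh5 and Klf4 in each library (points), with the mean and SD of each group (horizontal lines and bars; 2 libraries in Wt HFD, 3 in each other group). The Gpihbp1 points of ApoE KO HFD and ApoE KO CD lie at 2.43 CPM or less and all Wt points at 3.02 CPM or more, whereas for Fabp4 and Klf4 the lowest Wt CD point lies among the ApoE KO points and for Cdh5 below them.

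Gpihbp1 belongs to the Ly6 family of small membrane-anchored proteins, and the 3 other family members stand near it on chromosome 15. The stretch of 644 kb between the outer ends of Ly6e (74955051 to 74959905, plus strand) and Gpihbp1 holds 31 annotated genes, 11 of them protein coding and 17 pseudogenes, and 4 of the 31 were expressed highly enough to be tested, all of them among the 36. Ly6e, known for limiting the entry of coronaviruses, had 3.52, 4.37 and 5.13 CPM in ApoE KO HFD libraries and 3.07, 2.66 and 2.60 CPM in libraries labelled ApoE KO CD. Wt values of Ly6e were 5.29 and 5.57 CPM in Wt HFD libraries and 6.36, 3.92 and 7.74 CPM in libraries labelled Wt CD. The 3 ApoE KO CD libraries were the lowest of the 11 and overlapped no other group. Ly6e averaged 2.78 ± 0.251 CPM in ApoE KO CD and 6.01 ± 1.93 CPM in Wt CD libraries (SD, n = 3 each), a log2 fold change of −1.11 (fitted SE 0.23, adjusted p = 0.0338 in edgeR's quasi-likelihood test), and it was at 0.64 (SE 0.23, adjusted p = 1.00) in ApoE KO HFD against ApoE KO CD. The interaction was 0.79 (SE 0.34, adjusted p = 0.571).

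The call of Ly6e was lost without Wt CD replicate 1 (−1.07, adjusted p = 0.0696) or 3 (−0.90, 0.135), without ApoE KO CD replicate 1 (−1.20, 0.0900), 2 (−1.08, 0.155) or 3 (−1.06, 0.173), and without ApoE KO HFD replicate 2 (−1.11, 0.0600) or 3 (−1.12, 0.0505). Without Wt CD replicate 2 it was −1.34 (adjusted p = 0.000869). Ly6a, the stem cell antigen Sca-1, had a chow log2 fold change of −0.63 (SE 0.40) and Ly6c1, a capillary marker of the mouse, one of −0.60 (SE 0.33), and neither was called. Ly6a ran from 0.716 to 2.31 CPM and Ly6c1 from 1.26 to 3.81 CPM over the 11 libraries, with ApoE KO CD and Wt CD overlapping for both. Ly6 genes have near-identical copies in the same stretch, so reads may have been split between them and these levels are uncertain.

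The 10 junction and surface genes had chow log2 fold changes with a median of −0.59, with 9 of 10 below 0 and 0 called, and on the high-fat diet ApoE KO HFD against Wt HFD gave −0.54 with 10 of 10 below 0. Cldn5, the tight-junction claudin of endothelium, had 1.51, 0.560 and 0.501 CPM in ApoE KO HFD libraries and 1.55, 1.67 and 0.936 CPM in libraries labelled ApoE KO CD. Wt values of Cldn5 were 2.25 and 2.23 CPM in Wt HFD libraries and 2.97, 1.61 and 2.14 CPM in libraries labelled Wt CD. ApoE KO HFD libraries lay below every library labelled Wt, and the lowest values rested on 15 and 20 counts. Its log2 fold change was −1.36 (SE 0.39, adjusted p = 0.163 in edgeR's quasi-likelihood test) in ApoE KO HFD against Wt CD and −1.35 (SE 0.41, adjusted p = 1.00) in ApoE KO HFD against Wt HFD, against −0.71 (SE 0.38, adjusted p = 0.360) between the chow labels. Without Wt CD replicate 2, Cldn5 was called in ApoE KO HFD against Wt CD (−1.55, adjusted p = 0.0250).

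Esam, an adhesion molecule of endothelial contacts, had 3.16, 3.10 and 3.13 CPM in ApoE KO HFD libraries and 2.81, 2.43 and 2.17 CPM in libraries labelled ApoE KO CD. Wt values of Esam were 3.53 and 5.41 CPM in Wt HFD libraries and 5.5, 1.80 and 8.04 CPM in libraries labelled Wt CD. The Wt CD libraries spanned the whole range of the gene, and the chow log2 fold change of −1.05 (SE 0.36, adjusted p = 0.182 in edgeR's quasi-likelihood test) did not pass. Mmrn2, a matrix glycoprotein of the endothelial surface, had 3.16, 3.99 and 3.66 CPM in ApoE KO HFD libraries and 3.71, 3.14 and 1.72 CPM in libraries labelled ApoE KO CD. Wt values of Mmrn2 were 4.55 and 5.08 CPM in Wt HFD libraries and 5.85, 3.77 and 6.35 CPM in libraries labelled Wt CD. ApoE KO CD lay below Wt CD by a narrow margin, with a log2 fold change of −0.91 (fitted SE 0.26, adjusted p = 0.109). Ecscr, a regulator of endothelial migration, was low, at 0.478, 0.933 and 0.827 CPM in ApoE KO HFD libraries and 0.872, 0.477 and 0.278 CPM in libraries labelled ApoE KO CD. Wt values of Ecscr were 1.04 and 1.36 CPM in Wt HFD libraries and 1.90, 0.628 and 1.28 CPM in libraries labelled Wt CD. Its chow groups overlapped, at a log2 fold change of −1.23 (fitted SE 0.47, adjusted p = 0.212).

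Of the common endothelial markers of this group, Cdh5 and Pecam1 followed the same library pattern. Cdh5, the cadherin of endothelial junctions, ran from 10.6 CPM in Wt CD replicate 2 to 31.8 CPM in Wt HFD replicate 2, and Pecam1, the adhesion molecule CD31, from 6.93 CPM in ApoE KO CD replicate 3 to 17.3 CPM in Wt HFD replicate 2. Their chow log2 fold changes were −0.62 (SE 0.31) and −0.56 (SE 0.28), and neither was called. Podxl, a surface sialomucin, and Emcn, endomucin, had chow log2 fold changes of −0.29 and −0.03, and Icam2, a ligand of leukocyte integrins, had −0.01. Emcn went against the library pattern in Wt CD replicate 3, its lowest library, with 28 counts and a log2 deviation of −1.14 from its mean. Icam2 was lower in each ApoE KO HFD library (0.550, 1.08 and 1.03 CPM) than in each Wt HFD library (1.64 and 1.65 CPM). Plvap, the diaphragm protein of fenestrae, was at 0 counts in Wt CD replicate 3 and at most 1.37 CPM elsewhere.

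Among the 8 receptors, 8 of 8 were below 0 both between the chow labels, with a median log2 fold change of −0.64, and in ApoE KO HFD against Wt HFD, with a median of −0.47, and 0 of 8 were called. Tie1, the partner of the angiopoietin receptor, had 4.86, 5.11 and 6.19 CPM in ApoE KO HFD libraries and 5.01, 4.57 and 3.69 CPM in libraries labelled ApoE KO CD. Wt values of Tie1 were 5.56 and 8.19 CPM in Wt HFD libraries and 9.11, 4.32 and 12.1 CPM in libraries labelled Wt CD. Wt CD replicates 1 and 3 were the highest of all and replicate 2 lay among the ApoE KO CD libraries. The chow log2 fold change of Tie1 was −0.95 (SE 0.28, adjusted p = 0.132 in edgeR's quasi-likelihood test), and without Wt CD replicate 2 it was called (−1.26, adjusted p = 0.00144).

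S1pr1, the sphingosine-1-phosphate receptor that tightens the barrier, had 4.47, 4.63 and 3.81 CPM in ApoE KO HFD libraries and 5.04, 3.46 and 3.87 CPM in libraries labelled ApoE KO CD. Wt values of S1pr1 were 6.08 and 7.01 CPM in Wt HFD libraries and 6.93, 4.51 and 7.63 CPM in libraries labelled Wt CD. The Wt HFD libraries lay above every ApoE KO library. Its log2 fold changes were −0.61 (SE 0.23, adjusted p = 1.00) in ApoE KO HFD against Wt HFD and −0.62 (SE 0.21, adjusted p = 0.168 in edgeR's quasi-likelihood test) between the chow labels. Ramp2, which makes a receptor for adrenomedullin together with Calcrl, had 1.08, 0.634 and 0.977 CPM in ApoE KO HFD libraries and 0.675, 0.676 and 0.708 CPM in libraries labelled ApoE KO CD. Wt values of Ramp2 were 1.37 and 1.31 CPM in Wt HFD libraries and 1.80, 0.824 and 1.95 CPM in libraries labelled Wt CD. ApoE KO CD lay below Wt CD throughout, at a log2 fold change of −1.15 (fitted SE 0.36, adjusted p = 0.148), and Ramp2 overlaps exons of Vps25 on its own strand, so its reads may in part be lost or shared. Kdr and Flt1, the main VEGF receptors, had chow log2 fold changes of −0.60 (SE 0.26) and −0.28 (SE 0.29), Tek, the angiopoietin receptor, −0.66 (SE 0.37), the TGF-beta co-receptor gene Eng −0.81 (SE 0.33) and the guidance receptor gene Robo4 −0.35 (SE 0.24).

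The 6 transcription factors included 1 of the ETS family. Erg, which keeps the endothelial programme on, had 1.29, 1.38 and 1.65 CPM in ApoE KO HFD libraries and 1.10, 0.875 and 0.961 CPM in libraries labelled ApoE KO CD. Wt values of Erg were 1.45 and 1.83 CPM in Wt HFD libraries and 1.64, 1.14 and 2.93 CPM in libraries labelled Wt CD. The ApoE KO CD libraries were the lowest of the 11, and the chow log2 fold change was −0.95 (SE 0.33, adjusted p = 0.180 in edgeR's quasi-likelihood test). Klf2 and Klf4 are induced by blood flow and hold endothelium in a quiescent state. Klf4 had 6.79, 4.78 and 5.21 CPM in ApoE KO HFD libraries and 8.66, 7.12 and 5.59 CPM in libraries labelled ApoE KO CD. Wt values of Klf4 were 10.03 and 9.71 CPM in Wt HFD libraries and 9.90, 4.79 and 10.4 CPM in libraries labelled Wt CD. ApoE KO HFD lay below Wt HFD without overlap, at a log2 fold change of −0.81 (fitted SE 0.26, adjusted p = 1.00), while the chow labels gave −0.23 (SE 0.24).

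Klf2 had 10.9, 8.21 and 7.29 CPM in ApoE KO HFD libraries and 9.56, 8.75 and 7.86 CPM in libraries labelled ApoE KO CD. Wt values of Klf2 were 15.97 and 12.6 CPM in Wt HFD libraries and 12.4, 6.20 and 14.4 CPM in libraries labelled Wt CD. As with Klf4, both Wt HFD libraries lay above every ApoE KO library, and ApoE KO HFD against Wt HFD gave −0.70 (SE 0.26, adjusted p = 1.00 in edgeR's quasi-likelihood test). Both KLF genes are also expressed in other cells of the heart. Sox17 and Sox18, factors of vessel identity, ran from 0.443 to 1.01 CPM and from 0.675 to 2.2 CPM, and their chow log2 fold changes of 0.16 and −0.47 had standard errors of 0.43 and 0.37. Tcf15, which with Meox2 drives fatty acid transport genes in heart capillaries of the mouse, spanned its whole range within Wt CD, from 0.471 CPM in replicate 2 to 5.0 CPM in replicate 3.

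Of the 5 signalling and secreted genes, Egfl7, a secreted vessel factor whose introns hold miR-126, had 6.55, 5.34 and 5.26 CPM in ApoE KO HFD libraries and 4.50, 4.93 and 3.54 CPM in libraries labelled ApoE KO CD. Wt values of Egfl7 were 6.88 and 7.62 CPM in Wt HFD libraries and 8.51, 4.24 and 9.51 CPM in libraries labelled Wt CD. Each ApoE KO HFD library was above each ApoE KO CD library and below each Wt HFD library. The chow log2 fold change was −0.79 (SE 0.24, adjusted p = 0.132 in edgeR's quasi-likelihood test). Nos3, the endothelial nitric oxide synthase, had log2 fold changes of −0.72 (SE 0.28) in ApoE KO HFD against Wt HFD and −0.29 (SE 0.26) between the chow labels. Rasip1, which opens vessel lumens, Rgcc, a cell cycle regulator, and Vwf, the clotting factor of larger vessels, had chow values of −0.10, −0.55 and −0.42, and 0 of the 5 genes were called.

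Since most of the 36 genes were high or low in the same libraries, Gpihbp1 was also set against the summed CPM of the 18 junction and receptor genes. This division was chosen after the values had been seen and carries no test. Per 100 CPM of the 18 genes, Gpihbp1 was at 1.93, 2.22 and 1.74 in ApoE KO HFD libraries and at 2.19, 1.5 and 1.86 in libraries labelled ApoE KO CD, against 3.14 and 2.10 in Wt HFD libraries and 3.98, 3.85 and 3.25 in libraries labelled Wt CD. Wt CD replicate 2, low in the plain CPM, stood with the other libraries of its label, and the 3 Wt CD libraries were above the other 8. The mean ratio was 1.85 ± 0.344 in ApoE KO CD and 3.69 ± 0.389 in Wt CD libraries (SD, n = 3 each), so that ApoE KO CD stood at 0.501 of Wt CD. ApoE KO HFD, at 1.96 ± 0.239 (SD, n = 3), stood at 0.532 of Wt CD.

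Divided in the same way, 18 genes outside the divisor could be compared. ApoE KO CD lay below Wt CD without overlap for 3 of them (Ly6e, Gpihbp1 and Fabp4), beside 1.31% of all genes, and above it for 4 (Cav1, Rasip1, Klf2 and Klf4), beside 8.85% of all genes. The divisor was at 111, 90.1 and 81.4 CPM in ApoE KO CD libraries and at 163, 78.5 and 179 CPM in Wt CD libraries. Dividing by it shifts every gene, so the shares of all genes in this paragraph depend on it. Undivided, 7.67% of all genes lay below Wt CD. ApoE KO HFD lay below Wt CD for Gpihbp1 (2.19% of all genes) and above it for Cav1 (4.32%). Against Wt HFD it lay below for 0 of the 18 (0.638% of all genes) and above for Sox17 and Erg (26.5%). With the log2 of the same sum as a term in the edgeR quasi-likelihood fit, Gpihbp1 was at −1.08 (SE 0.25, adjusted p = 0.0672) between the chow labels and at −0.97 (SE 0.23, adjusted p = 0.0703) in ApoE KO HFD against Wt CD, and Ly6e was at −0.72 (SE 0.20, adjusted p = 0.162) between the chow labels.

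**Figure D4:**
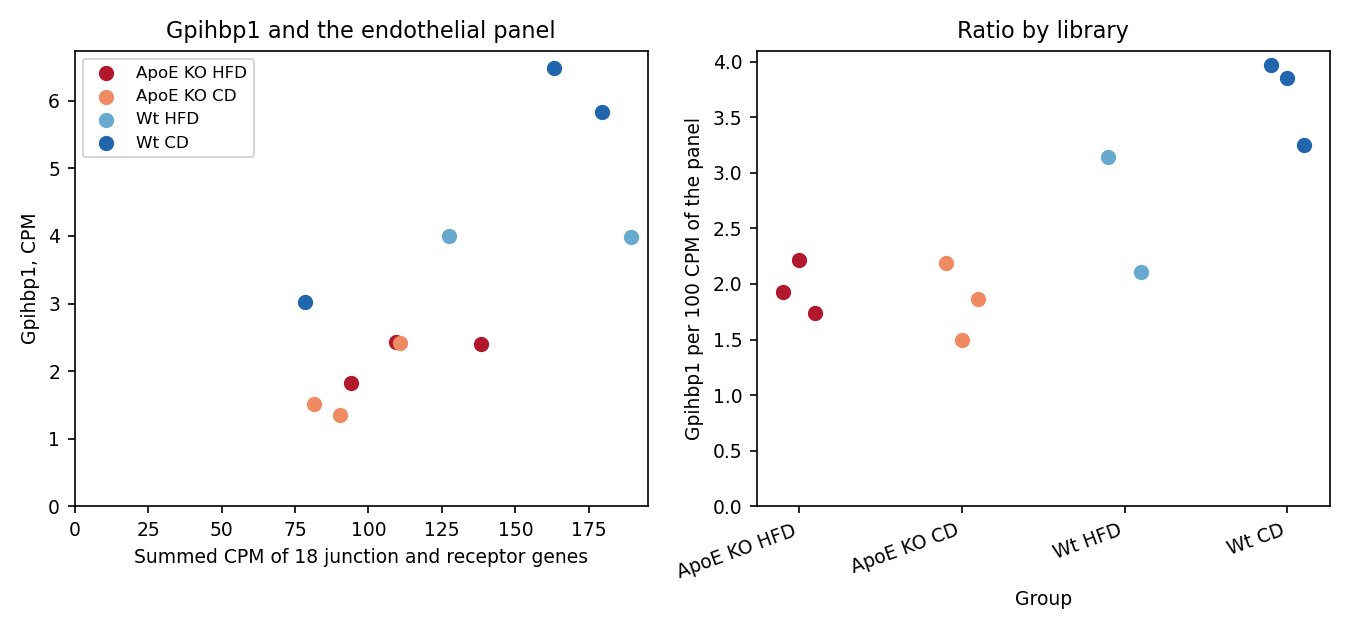
Left, Gpihbp1 in CPM against the summed CPM of the 18 junction and receptor genes, a point per library; right, Gpihbp1 per 100 CPM of that sum, by group. Wt CD replicate 2 has the smallest sum, 78.5 CPM, yet a ratio of 3.85, and the 3 Wt CD ratios, 3.25 to 3.98, lie above the other 8, of which the highest is 3.14 in Wt HFD.

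The muscle side of the same lipid route was abundant and was not called. Lpl, the lipase that GPIHBP1 carries, averaged 2115 ± 263 CPM in ApoE KO HFD and 2142 ± 150 CPM in ApoE KO CD libraries (SD, n = 3 each), against 1873 ± 172 CPM in Wt HFD (n = 2) and 1725 ± 379 CPM in Wt CD libraries (n = 3). Its log2 fold change between the chow labels was 0.31 (SE 0.16, adjusted p = 0.360 in edgeR's quasi-likelihood test), opposite in sign to that of Gpihbp1. Cd36, the fatty acid transporter of muscle and endothelium, was at 0.20 (SE 0.19) between the chow labels and at −0.30 (SE 0.21) in ApoE KO HFD against Wt HFD. Of the 16 genes listed for capillary lipid supply 15 were tested and 0 called in any comparison. The smallest p belonged to the glucose transporter gene Slc2a1, which averaged 6.58 ± 1.34 CPM in ApoE KO HFD and 3.51 ± 0.985 CPM in Wt CD libraries (SD, n = 3 each), a log2 fold change of 0.90 (fitted SE 0.23, adjusted p = 0.112), and Meox2, the partner of Tcf15, was at −1.15 (SE 0.35, adjusted p = 0.134) between the chow labels.

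Vegfa, the growth factor that muscle sends to its capillaries, averaged 275 ± 12.3 CPM in ApoE KO HFD, 276 ± 67.5 CPM in ApoE KO CD, 253 ± 0.818 CPM in Wt HFD and 329 ± 47.3 CPM in Wt CD libraries (SD, n = 2 in Wt HFD and 3 in each other group), and was not called. Of 34 vascular ligands and partners 31 were tested, 0 were called, and 20 of 31 were below 0 between the chow labels with a median log2 fold change of −0.24. Notch4, an endothelial Notch receptor, was at −0.95 (SE 0.28, adjusted p = 0.117 in edgeR's quasi-likelihood test) and Acvrl1, the ALK1 receptor of Eng's pathway, at −1.25 (SE 0.37, adjusted p = 0.128) between the chow labels. Of 10 genes of endothelial activation 7 were tested and 0 called.

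Genes listed as marks of other endothelial types had a median near 0 between the chow labels. Of 14 genes of arterial, venous, lymphatic and endocardial endothelium, 0 were called and 7 of 14 were below 0 between the chow labels, with a median of 0.01, and their summed level was 106 to 121 CPM in ApoE KO CD and 118 to 130 CPM in Wt CD libraries. Prox1 made up 55.3% to 73.7% of that sum over the 11 libraries, and the 13 other genes summed to 30.7 to 43.8 CPM in ApoE KO CD and 33.1 to 52.8 CPM in Wt CD libraries. Prox1 had 1735 to 3538 counts per library, where Lyve1, also on this list, had 10 to 94, and the cell source of Prox1 was not tested. Vwf is on this list and also among the genes of capillary endothelium above, so the sets are not separate. Whether other endothelial types were spared was not tested. In ApoE KO HFD against Wt HFD 11 of 14 were below 0 with a median of −0.32. The arterial gene Sema3g had the smallest p there, at −1.35 (SE 0.27, adjusted p = 0.101 in edgeR's quasi-likelihood test), with 2.42 ± 0.0795 CPM in ApoE KO HFD and 6.18 ± 1.80 CPM in Wt HFD libraries (SD, n = 3 and 2).

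Other cells of the heart were present at varying levels, and their part in the results was not tested. The 12 pericyte and smooth muscle markers summed to 274 to 284 CPM in ApoE KO HFD, 250.9 to 284 CPM in ApoE KO CD, 257 to 278 CPM in Wt HFD and 185 to 255 CPM in Wt CD libraries. Abcc9 made up 71.4% to 85.2% of that sum, and its cell source was not tested. The 11 other markers summed to 48.3 to 57.8 CPM in ApoE KO HFD, 37.1 to 79.8 CPM in ApoE KO CD, 56.1 to 72.8 CPM in Wt HFD and 39.98 to 59.7 CPM in Wt CD libraries, with all groups overlapping Wt CD. The 10 fibroblast markers summed to 25.2 to 37.9 CPM in ApoE KO HFD, 17.4 to 36.3 CPM in ApoE KO CD, 36.4 to 41.1 CPM in Wt HFD and 22.4 to 30.1 CPM in Wt CD libraries. The 12 macrophage markers summed to 9.22 to 13.6 CPM in ApoE KO HFD, 6.90 to 35.7 CPM in ApoE KO CD, 6.41 to 23.9 CPM in Wt HFD and 11.1 to 22.01 CPM in Wt CD libraries. The 6 atrial markers summed to 23.5 to 93.9 CPM in ApoE KO HFD, 114 to 129 CPM in ApoE KO CD, 12.8 to 197 CPM in Wt HFD and 76.3 to 139 CPM in Wt CD libraries, and 6 of 6 were below 0 in ApoE KO HFD against Wt CD. None of the 7 adipocyte markers passed the filter, and their sum was 0.261 to 1.45 CPM. No marker of these lists was at 0 in every library, and 0 were called in any comparison.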

How the data were processed

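Per the labels, RNA isolated on a Maxwell RSC instrument went into strand-specific SMART-Seq Stranded libraries. The submitters' processing notes name Trimmomatic 0.39, STAR 2.7a, HTSeq 0.13.5 and GRCm38 (mm10). The deposited values are raw read counts for each gene, without normalization by the authors. Symbols and positions came from a GRCm38 annotation, which matched 55154 of 55335 identifiers.

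The 36 genes, the gene lists and the tests were chosen with earlier results of these data known. The 11 libraries were fitted together in edgeR 4.0.16 (R 4.3.3) with filterByExpr by group, TMM factors, a mean for each group and its quasi-likelihood F test (robust, two-sided, 7 residual degrees of freedom, common biological coefficient of variation 0.200), after tests on simulated data. P-values were adjusted by the Benjamini-Hochberg method over 16932 genes in each of 6 comparisons, with calls made under 0.05. CPM values are TMM-scaled, and CPM per kb divides by the merged exon length. Replicates of a group differed by more than sampling noise (chi-square per degree of freedom 24.5 to 190), so none was counted as a duplicate. Library-by-library values are given for Gpihbp1, for called genes and then for those of the smallest unadjusted p up to 14 genes, which include the highest per kb, and other members by range and count. Genes outside the 36 come from 13 lists, up to 3 a list, plus Lpl, Cd36, Vegfa and Apoe. A gene that this rule takes is not reported here. Alternatives were DESeq2 1.42.0, RLE factors, all 12 libraries, fits of only the groups compared, no filter or 1 of 50 counts in 3 libraries, a replicate block, leaving out the mitochondrial genome, and leaving out each library in turn. A term for the summed 18 junction and receptor genes, and other divisors of Gpihbp1, were added after the data had been seen.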

Additional observations from a re-analysis of the deposited data

How the results depend on the processing

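The median log2 fold change of the 36 genes kept its sign in every alternative (none was computed with the endothelial sum as a term) for ApoE KO HFD against Wt CD, ApoE KO HFD against ApoE KO CD, ApoE KO CD against Wt CD and ApoE KO HFD against Wt HFD. The medians near 0, of Wt HFD against Wt CD (−0.17 without Wt CD replicate 2 to 0.37 without Wt CD replicate 3) and of the interaction (−0.16 to 0.43), took both signs. The number of the 36 genes called in ApoE KO CD against Wt CD was 2 in the main fit. It was 0 with all 12 libraries, 4 with DESeq2 and 7 without a filter. It was 0 with only the 2 groups fitted and 0 to 20 with a library left out. With the endothelial sum as a term it was 0, but that sum is made of junction and receptor genes among the 36. Those genes were adjusted for their own sum, so for them this count decides nothing. Gpihbp1 and Ly6e lie outside the sum, and in that fit their adjusted p was 0.0672 and 0.162 (edgeR's quasi-likelihood test). In ApoE KO HFD against Wt CD, where 0 were called, DESeq2 called 1, the fit without a filter 2, and fits with a library left out 0 to 11. In ApoE KO HFD against Wt HFD, where 0 were called, the fit without a filter called 1, Klf4 (−0.85, adjusted p = 0.0398 in edgeR's quasi-likelihood test). The causes were not tested.

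Over all genes, the calls in ApoE KO CD against Wt CD (86) were 3 with all 12 libraries, 38 with 2 groups, 383 with DESeq2, 475 without a filter and 37 to 1801 with a library left out; those in ApoE KO HFD against Wt CD (26) were 0, 12, 176, 296 and 0 to 1304; those in Wt HFD against Wt CD (35) were 1, 9, 150, 272 and 4 to 1019. In ApoE KO HFD against ApoE KO CD (12) they were 1 with all 12 libraries, 20 with DESeq2, 26 without a filter and 6 to 14 with a library left out; in ApoE KO HFD against Wt HFD (8) they were 1, 24, 49 and 4 to 20; and in the interaction (37) they were 8, 75, 105 and 20 to 285.

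Of the 15 pairs of libraries that share a replicate number across groups, 1 correlated above 0.1 in its deviations from the group means (−0.17 to 0.19), and the main fit used no pairing. Weak correlations cannot exclude that libraries of the same number were prepared together. With the replicate number as a block, 1 of the 36 genes was called in ApoE KO CD against Wt CD, Gpihbp1 at −1.52 (adjusted p = 0.0231 in edgeR's quasi-likelihood test), Ly6e was at −1.09 (adjusted p = 0.0526), and the calls over all genes were 61; in ApoE KO HFD against Wt CD they were 14 and in Wt HFD against Wt CD 19.

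With the endothelial sum as a term, Klf4 in ApoE KO CD against Wt CD turned to 0.13, and Erg and Fabp4 in ApoE KO HFD against Wt HFD to 0.20 and 0.046. With a library left out, Erg in ApoE KO HFD against Wt CD ran from −0.66 to 0.042 and Ly6e in Wt HFD against Wt CD from −0.38 to 0.068, in both cases highest without Wt CD replicate 3. Gpihbp1 per 100 CPM of the 18 genes in ApoE KO CD stood at 0.456 to 0.549 of Wt CD with a library left out. Depth limits the lowest genes: Plvap, Ecscr, Sox17, Tcf15, Cldn5, Ramp2 and Ly6a had under 20 counts in at least 1 library.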
